A study of Mus musculus with 8 samples.

Results

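Genes of neurons, glia and the neural crest were followed in RNA of embryonic mouse kidneys taken at E13.5, counted in days after the mating plug. The set has 28 members chosen by name for these cell types. Of these, 27 were found under their own symbol in a table of 23337 genes. The remaining one, Map2, stood there under its older symbol Mtap2, which RefSeq lists as a synonym. Mutant kidneys (4 libraries) had the genotype Foxd1Cre;Smo(flox/-), in which Cre driven by Foxd1, a gene of renal stromal progenitors, acts on a floxed copy of Smo while the other copy is null. Control kidneys (4 libraries) had the genotype Smo(flox/+), with a floxed and a wild type copy and no Cre named. Both groups came from matings of Foxd1Cre(Smo+/-) with Smo(flox/flox) mice on a mixed C57BL/6 background. Mutants therefore also carried Cre and lacked 1 copy of Smo in every cell. The labels number the samples 1 to 4 in each group and do not say that these were separate embryos, so what the p-values measure is the spread among the samples, which may be technical.

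Libraries held 10288191 to 13494079 reads in genes. Smo, which encodes the hedgehog signal transducer Smoothened, stood at 509 to 553 in mutant and at 2152 to 2294 in control libraries, so every library matched its label. Levels are normalised read counts, in which 1 read was worth 0.851 to 1.12 depending on the library. Listed at 0, a gene can have had a level of up to 2.55 to 3.36, the worth of 3 reads, counting error only. Of 9 renal markers, Six2, Cited1, Wt1, Pax2, Eya1, Ret, Wnt11 and Foxd1 were present in every library, and the podocyte gene Nphs1 was at 16.2 or less throughout. These markers also differed between the groups. All 8 that were tested had an unadjusted p under 0.05 by limma, beside 8.70% of all tested genes. Of the 8, 7 had positive fold changes, and 4 did not overlap, beside 5.31% of all tested genes. Foxd1, the stromal gene whose promoter drives Cre, fell to 593 ± 137 in mutants, against 1477 ± 473 in controls, and Pax2, a gene of nephron progenitors and ureteric bud, rose to 1819 ± 121 in mutants, against 1461 ± 82.5 in controls (SD, n = 4 each; adjusted p = 0.0251 and 0.0332 by limma). The call of each was lost when some libraries were left out. Cre was named for the mutants alone, so the parts of Cre and of the loss of Smo in these levels cannot be told apart.

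The nerves of the kidney come from the neural crest, a migratory embryonic population that forms sympathetic and sensory neurons, their Schwann cells and the chromaffin cells of the adrenal medulla, which lies next to the kidney. Sympathetic precursors are specified by Phox2 and Hand2 factors and then make catecholamines with tyrosine hydroxylase and dopamine beta-hydroxylase. Several transcripts usually called neuronal are also made by other embryonic cells, so a level in whole kidney does not identify a neuron.

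Among the members, Map2 was lower in mutant kidneys. It encodes a microtubule-associated protein best known from neuronal dendrites. The gene lies on chromosome 1 from 66175202 to 66442583 of GRCm38.p6. Its level was 246, 191, 190.4 and 215 in mutants 1 to 4, against 316, 324, 354 and 307 in controls 1 to 4. All mutants lay below all controls, and the highest mutant was mutant 1. The means were 211 ± 26.5 in mutants and 325 ± 20.2 in controls (SD, n = 4 each), so the mutant mean was 64.8% of the control mean. The log2 fold change of mutant over control was -0.63 on the scale of normalised count + 1 (SE 0.091, adjusted p = 0.0130 by limma with Benjamini-Hochberg adjustment). An exact two-sided permutation test over the samples, run for Map2 alone, gave p = 0.0286. This is the smallest that 70 arrangements allow and follows from the lack of overlap, so it adds nothing to it. By its unadjusted p, Map2 ranked 22 among the 13692 genes tested, which are those with a mean of at least 10. In bulk RNA, fewer cells that express Map2 and less of its RNA per cell cannot be told apart.

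Map2 was the single call among the 14 members that had a mean of at least 10 and were tested. Over all tested genes 0.446% were called lower and 0.124% higher, 0.570% in all. Map2 was also the one tested member whose groups did not overlap, a property of 5.31% of all tested genes, 3.00% with lower and 2.31% with higher levels in mutants. Of the 14, fold changes were above 0 for 7 and below 0 for 7, and their median log2 fold change was -0.014, beside 0.0037 over all genes. Among all 28 members, 14 had a mean under 10 and were not tested; fitted by limma without the filter, where 0.351% of all genes were called, they gave no call and no unadjusted p under 0.05, with the lowest adjusted p at 0.663 for Prph.

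The call of Map2 stood in the count tests on recovered reads (edgeR adjusted p = 0.0143, with 0.577% of all genes called, and DESeq2 adjusted p = 5.92e-06, with 1.56% called) and in the authors' deposited table, which lists it at -0.63 (log2 ratio) with an adjusted p of 6.54e-06. The call was lost when certain libraries were left out: by limma, the adjusted p was 0.0506 without mutant 2, 0.0574 without mutant 3 and 0.0632 without control 3, 0.0756 without controls 1 and 2 together and 0.135 without both libraries numbered 2. Its log2 fold change with 1 library left out stayed between -0.71 and -0.58. Summed levels of 10 skeletal muscle genes were 217, 2179.9, 97.5 and 296 in mutants 1 to 4, against 641, 3909, 298 and 121 in controls 1 to 4, with peaks in mutant 2 and control 2. The part of muscle RNA and of the differences in renal markers in the level of Map2 was not tested. Exons of Map2 overlap the antisense gene Gm10558 over 0.754% of their length.

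**Figure D1:**
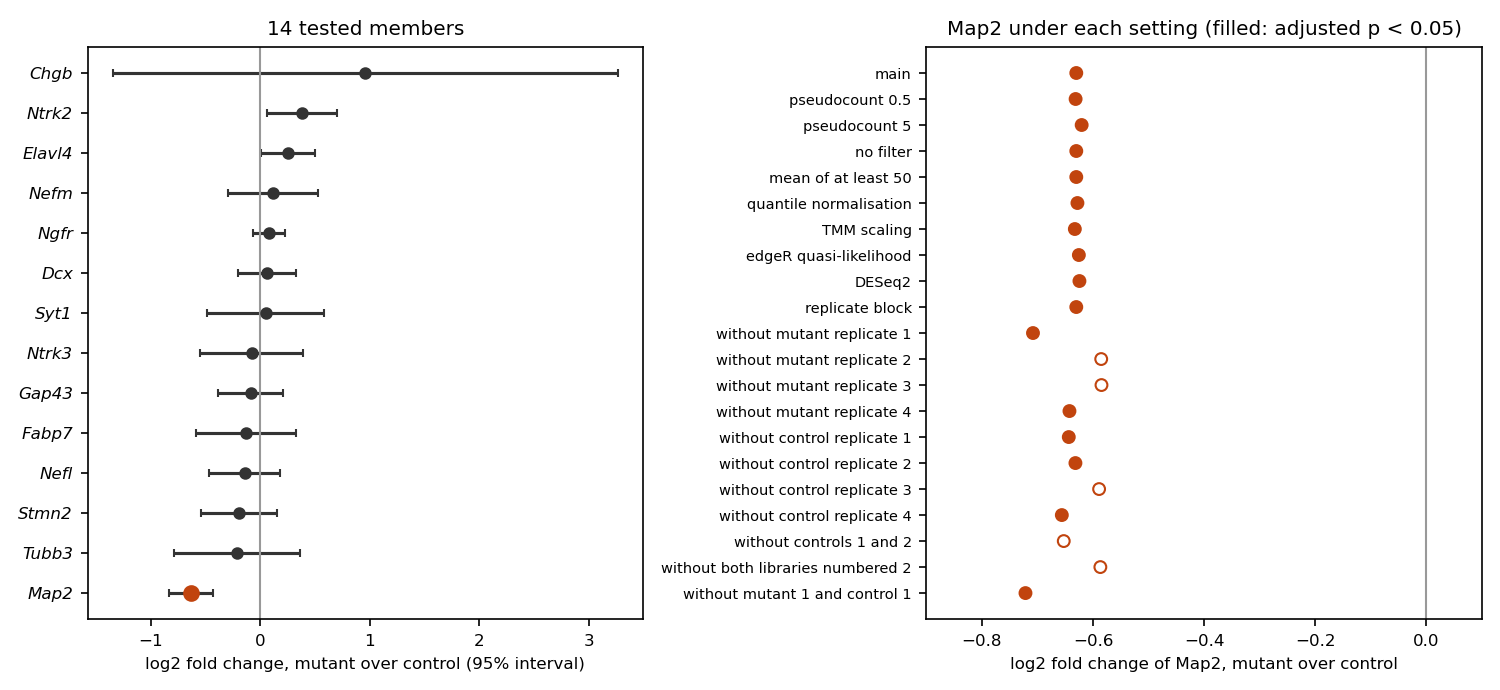
Left, log2 fold change of mutant over control (x axis) with its 95% interval from limma for each of the 14 tested members, ordered by size; the coloured point, Map2 at -0.63, is the one called. Right, the log2 fold change of Map2 under each setting, filled where its adjusted p was under 0.05; every value lies between -0.72 and -0.58, and 5 points are open.

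Other microtubule-associated protein genes were read beside Map2, a list of 8 chosen after its value was seen. None of the 8 was called by limma, edgeR or DESeq2, beside 0.570% of all genes tested by limma. An unadjusted p under 0.05 was reached by 1 of them, beside 8.70% of all tested genes, and their median log2 fold change was 0.0005. The lowest was that of Map1b, an axonal microtubule-associated protein, with 984, 1052, 1174 and 1169.6 in mutants 1 to 4, against 1133, 1354, 1219 and 1462 in controls 1 to 4. Its groups overlapped (log2 fold change -0.24, adjusted p = 0.353 by limma). Mapt, which encodes tau, had 21.5 to 33.4 in mutants and 17.4 to 36.6 in controls, and its adjusted p by limma was 0.967.

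The other tested genes of the neuronal cytoskeleton and its RNA regulators were not called. Dcx encodes doublecortin, a microtubule-binding protein of migrating neurons. It was the most highly counted of them, at 940, 1224, 1070 and 1271 in mutants 1 to 4, against 923, 927, 1208 and 1285 in controls 1 to 4. The ranges nearly coincided (log2 fold change 0.058, 95% interval -0.21 to 0.32, adjusted p = 0.947 by limma). Elavl4 encodes the neuronal RNA-binding protein HuD. It had 259.7, 191, 224 and 209 in mutants and 180.3, 157, 198 and 204 in controls. Mutants 1, 3 and 4 lay above all controls and mutant 2 lay among them (log2 fold change 0.25, 95% interval 0.011 to 0.50, adjusted p = 0.545 by limma). Elavl3, the gene of the related HuC, held no more than 6.80 in any library, so the paralogs differed in depth: Elavl4 had 1631 reads over all libraries and Elavl3 had 31.

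Gap43, which encodes a growth cone protein, had 132, 134, 121 and 158 in mutants, against 165, 132, 115 and 171 in controls. Stmn2, a tubulin-binding stathmin, had 74.5, 98.0, 82.9 and 90.2 in mutants, against 102, 116, 71.7 and 110.0 in controls. Both genes overlapped between groups, and Stmn3 of the same family stayed at 7.66 or lower in every library. Tubb3, the neuronal beta-tubulin class III gene, stood at 11.5, 16.0, 16.8 and 16.1 in mutants and at 19.6, 22.7, 11.6 and 17.9 in controls. Adjusted p-values of Gap43, Stmn2 and Tubb3 by limma were 0.920, 0.821 and 0.895, and their log2 fold changes -0.087, -0.19 and -0.21.

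Neurofilament genes had moderate levels. Nefl, the light chain, had 85.0, 71.3, 71.7 and 88.1 in mutants and 101, 68.2, 98.8 and 83.7 in controls. Nefm, the medium chain, had 109.8, 99.0, 119.9 and 143 in mutants and 157, 80.6, 94.9 and 113 in controls. Groups overlapped for both, with log2 fold changes of -0.14 and 0.11 and adjusted p-values of 0.868 and 0.925 by limma. In GENCODE vM21 the exons of the pair overlap on opposite strands over 32.8% of the length of Nefl and 19.2% of that of Nefm. In RefSeq the genes do not overlap, with Nefl at 68083863 to 68089095 and Nefm at 68119545 to 68125004 of chromosome 14. The annotation behind the counts is not stated, and a tag in the title of the deposited table may stand for unstranded counting. Under the GENCODE exons, reads from the shared stretch could not be assigned. Prph encodes peripherin, the intermediate filament of peripheral neurons, and it held far fewer reads. It had 2.86, 4.26, 2.24 and 1.07 in mutants and 5.10, 9.30, 2.91 and 4.70 in controls, with the highest level in control 2.

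**Figure D2:**
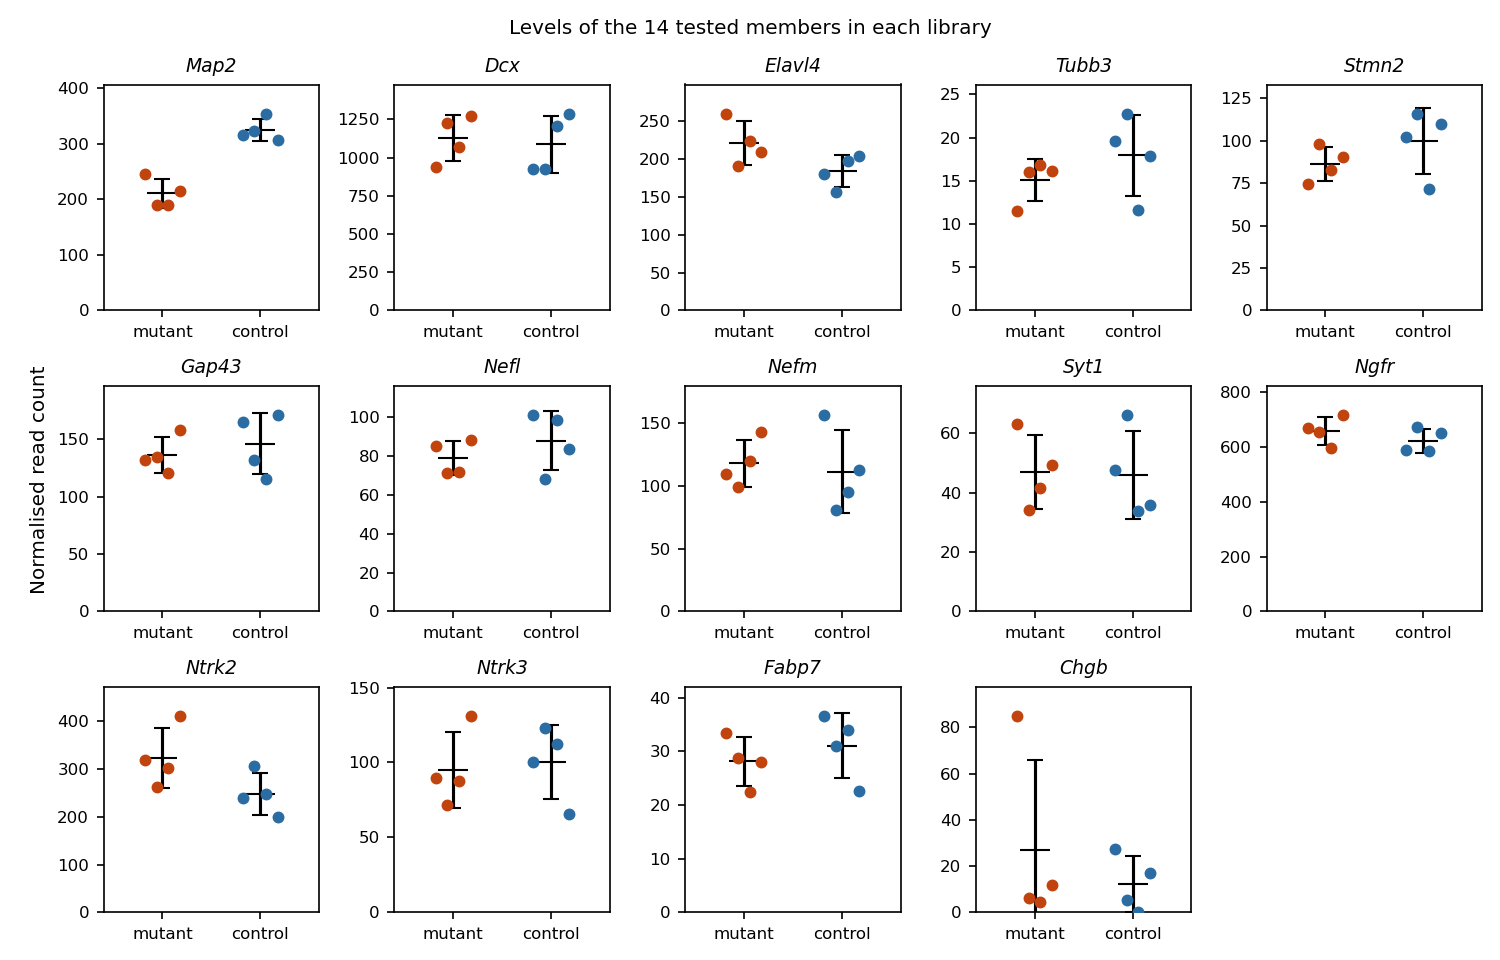
Normalised read count (y axis, from 0) of the 14 tested members in the 4 mutant and the 4 control libraries; points are libraries in the order 1 to 4, and bars are mean and SD (the lower bar of Chgb is cut at 0). The Map2 points of the mutants, 190.4 to 246, lie below those of the controls, 307 to 354; in every other panel the groups overlap.

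Receptors of the neurotrophins, the growth factors of peripheral neurons, gave no call. Ngfr encodes p75, the low-affinity receptor that binds all neurotrophins and is also a marker of neural crest cells. It had 669, 654, 595 and 716 in mutants, against 587, 671, 585 and 649.7 in controls. The highest library was 1.22 times the lowest (log2 fold change 0.079, 95% interval -0.067 to 0.23, adjusted p = 0.821 by limma). Ntrk2 encodes TrkB, the receptor of brain-derived neurotrophic factor. It had 319, 262, 302 and 410.3 in mutants, against 238, 305, 247 and 199 in controls. Mutants 1 and 4 lay above all controls, while control 2 lay above mutants 2 and 3. The means were 323 ± 62.7 in mutants and 247 ± 43.6 in controls (SD, n = 4 each), with a log2 fold change of 0.38 (95% interval 0.065 to 0.70), an unadjusted p of 0.0225 and an adjusted p of 0.426 by limma. No alternative fit called Ntrk2, whose lowest adjusted p was 0.248. Unadjusted p-values under 0.05 were reached by 3 of the 14 tested members, Map2, Ntrk2 and Elavl4, beside 8.70% of all tested genes.

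Ntrk3, the gene of the neurotrophin 3 receptor TrkC, had 89.8, 71.3, 87.4 and 131 in mutants, against 100.4, 123, 112 and 65.8 in controls. Its highest value stood in mutant 4 and its lowest in control 4 (log2 fold change -0.078, adjusted p = 0.957 by limma). The ligand gene Bdnf was near the limit of detection, at 7.64, 2.13, 10.1 and 4.30 in mutants and 2.55, 4.13, 3.88 and 3.76 in controls. These values rest on 2 to 9 reads per library, and an antisense gene, Gm45346, overlaps 14.4% of the exon length of Bdnf.

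The catecholamine and secretory granule members Chgb, Chga, Dbh and Th had their highest levels in a single mutant library. Other catecholamine genes mostly did not share this. Slc18a2 was highest in mutant 1 (82.1), but Ddc was lowest there (37.2). Pnmt was highest in control 2 (25.8), and Slc18a1 and Slc6a2 were highest in control 4 (9.40 and 3.76). Chgb encodes secretogranin 1 and Chga encodes chromogranin A, both proteins of the granules of chromaffin cells and neurons. Chgb had 85.0, 6.39, 4.48 and 11.8 in mutants, against 27.2, 5.17, 0 and 16.9 in controls. Chga had 34.4, 3.19, 3.36 and 6.44 in mutants, against 11.9, 8.27, 1.94 and 2.82 in controls. Mutant 1 was highest for both, control 1 second and control 3 lowest, so the groups overlapped. Dbh, which makes noradrenaline from dopamine, had 18.1, 4.26, 1.12 and 4.30 in mutants and 4.25, 2.07, 0.969 and 7.52 in controls. Th, the rate-limiting enzyme of catecholamine synthesis, had 16.2, 1.06, 0 and 1.07 in mutants and 7.66, 5.17, 0 and 0.940 in controls. Mutant 1 thus held 54.1%, 47.5%, 42.6% and 50.5% of the level summed over all libraries of Chgb, Chga, Dbh and Th. Chgb alone of these was tested, with 26.9 ± 38.8 in mutants and 12.3 ± 12.2 in controls (SD, n = 4 each). Its log2 fold change was 0.96 (SE 1.05, adjusted p = 0.880 by limma), and it was 0.10 without mutant 1 and -0.0077 without control 3.

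These 4 genes are shown with their promoters because they were high in the same library. The windows span each RefSeq start in GRCm38.p6, mostly upstream of it, and capitals mark TGACGTNA on either strand, a form of the cyclic AMP response element. The Th window is chr7:142899946-142900245 on the minus strand, Dbh is chr2:27165257-27165556 on the plus strand, Chga is chr12:102554691-102554990 on the plus strand and Chgb is chr2:132781392-132781691 on the plus strand.
Th: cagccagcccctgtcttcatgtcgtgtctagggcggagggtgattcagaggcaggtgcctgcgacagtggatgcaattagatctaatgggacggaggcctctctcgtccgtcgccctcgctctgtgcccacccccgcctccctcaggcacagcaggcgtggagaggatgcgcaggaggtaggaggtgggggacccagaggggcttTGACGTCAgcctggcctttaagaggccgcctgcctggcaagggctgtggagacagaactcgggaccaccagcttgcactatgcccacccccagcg
Dbh: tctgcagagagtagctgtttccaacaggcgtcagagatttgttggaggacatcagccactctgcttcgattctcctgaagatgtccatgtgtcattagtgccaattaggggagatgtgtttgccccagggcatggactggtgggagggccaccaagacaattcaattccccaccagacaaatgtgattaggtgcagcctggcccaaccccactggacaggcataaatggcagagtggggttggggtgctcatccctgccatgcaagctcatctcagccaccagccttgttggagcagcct
Chga: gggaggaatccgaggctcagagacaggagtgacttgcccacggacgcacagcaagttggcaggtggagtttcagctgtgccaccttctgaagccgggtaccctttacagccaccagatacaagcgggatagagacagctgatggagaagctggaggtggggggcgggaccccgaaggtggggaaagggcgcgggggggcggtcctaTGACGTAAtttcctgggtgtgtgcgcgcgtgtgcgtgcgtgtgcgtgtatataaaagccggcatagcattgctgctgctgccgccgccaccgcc
Chgb: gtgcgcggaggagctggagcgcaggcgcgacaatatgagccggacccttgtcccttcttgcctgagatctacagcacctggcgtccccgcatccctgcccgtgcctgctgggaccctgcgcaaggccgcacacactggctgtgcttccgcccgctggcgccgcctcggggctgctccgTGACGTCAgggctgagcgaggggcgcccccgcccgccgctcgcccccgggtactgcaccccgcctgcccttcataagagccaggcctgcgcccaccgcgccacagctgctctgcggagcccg
The Th and Chgb windows hold the palindrome TGACGTCA, its first base at -45 and -72 from the start, and the Chga window holds TGACGTAA at -44. The 21 members with a promoter in the table have 32 windows, since Bdnf, Elavl4 and others have several. TGACGTCA is in 3 of these windows (Th, Chgb and Foxd3), beside 1.79% of 32851 RefSeq windows of this length. TGACGTNA, which includes it, is in 5 (also Chga and a window of Bdnf), beside 2.93% of all windows. The E-box CANNTG is in 24 of the 32, or 75.0%, beside 72.3% of all windows. Such matches describe the letters only.

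The transcription factors of this lineage had another leading library. Hand2, which directs noradrenergic differentiation, had 11.5, 5.32, 2.24 and 7.52 in mutants and 12.8, 10.3, 0.969 and 8.46 in controls. Phox2a, a homeodomain factor that acts on Dbh and Th, had 2.86, 5.32, 1.12 and 4.30 in mutants and 6.80, 5.17, 1.94 and 1.88 in controls. Isl1, a LIM homeodomain factor of sympathetic and sensory neurons and also of other mesenchyme, had 10.5, 5.32, 8.96 and 10.7 in mutants and 14.5, 5.17, 1.94 and 8.46 in controls. Control 1 was the highest library for all 3 of these factors, and control 3 the lowest for Hand2 and Isl1. On the opposite strand, Hand2os1 overlaps 19.6% of the exon length of Hand2, and the abundant Inppl1 overlaps 4.67% of that of Phox2a, so their few reads are uncertain. Hand1 of the same lineage was named after its values were seen, and had 10.5 in mutant 1 and at most 2.55 elsewhere.

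The adrenal cortex surrounds chromaffin cells, and its markers were read in the same libraries. The steroidogenic genes Cyp11b1 and Cyp21a1 were each listed at 0 in 7 of the 8 libraries, Hsd3b1 was at most 1.70, and the cortical regulator Nr5a1 was 4.77 in mutant 1, against 1.12 to 3.22 in the other mutants and 0.940 to 4.13 in controls. Summed over 9 cortical markers, levels were 233 to 249 in mutants, with 242 in mutant 1, and 162 to 265 in controls. That sum was made up mainly of Akr1b7, Star and Mc2r, so it cannot show a small change in the scarcer cortical markers. Liver transcripts were highest in control 1, with a summed level over 6 genes, led by Afp, Alb and Trf, of 856, against 232 in mutant 1 and 75.2 to 202 elsewhere. The part of neighbouring tissue in the levels of these granule genes was not tested.

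**Figure D3:**
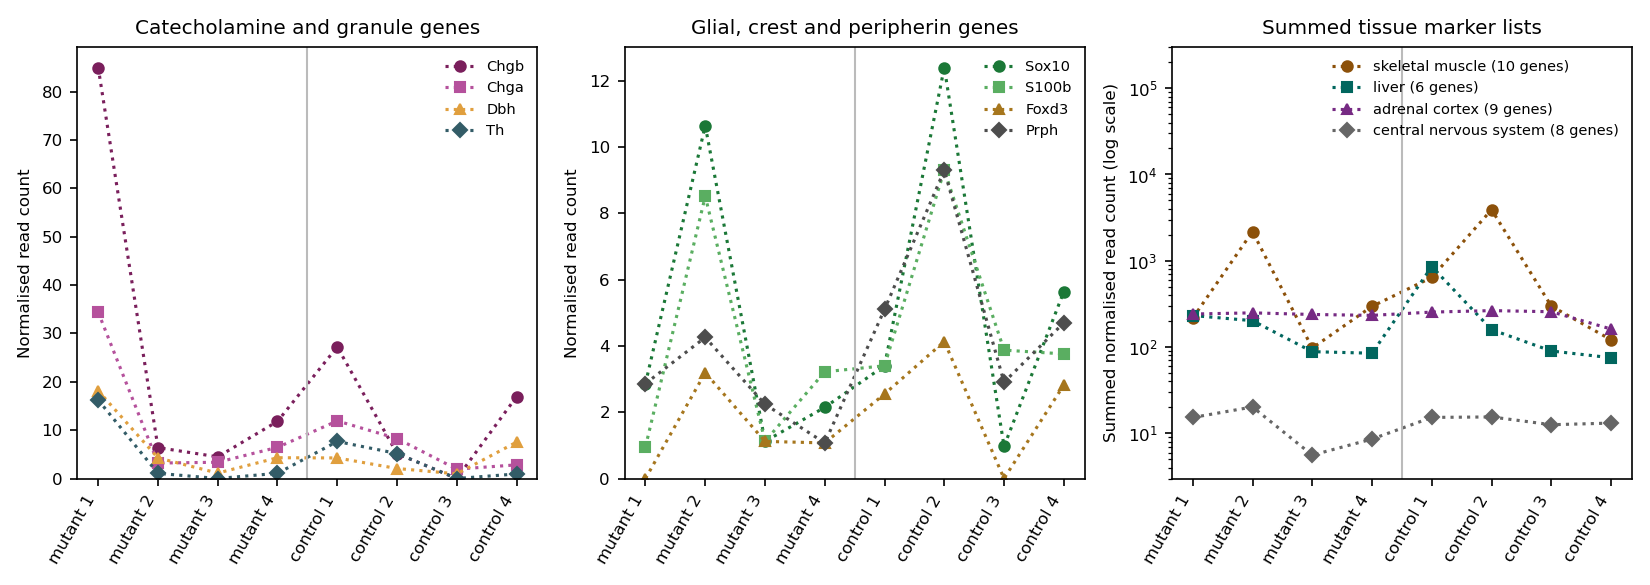
Normalised read counts by library, mutants 1 to 4 and then controls 1 to 4 (grey line between them): Chgb, Chga, Dbh and Th on the left, Sox10, S100b, Foxd3 and Prph in the middle, summed marker lists of 4 tissues on a log axis on the right. The left panel has its peak in mutant 1 (Chgb 85.0), the middle panel in control 2 (Sox10 12.4) with mutant 2 second for all but Prph, and muscle RNA has its peaks in those 2 libraries (3909 in control 2 and 2179.9 in mutant 2).

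Schwann cell and crest progenitor genes had another pattern. Sox10, the factor that maintains crest progenitors and glia, had 2.86, 10.6, 1.12 and 2.15 in mutants, against 3.40, 12.4, 0.969 and 5.64 in controls. S100b, a calcium-binding protein of glia, had 0.955, 8.52, 1.12 and 3.22 in mutants, against 3.40, 9.30, 3.88 and 3.76 in controls. Foxd3, a factor of early crest cells, had 0, 3.19, 1.12 and 1.07 in mutants, against 2.55, 4.13, 0 and 2.82 in controls. For all 3 genes control 2 was highest and mutant 2 second, so the groups overlapped. For Sox10 and S100b, 1 library in each group stood above its fellows. The order of the Foxd3 levels rests on 0 to 4 reads per library. Control 2 and mutant 2 also held the most skeletal muscle RNA, with 2179.9 in mutant 2 against 97.5 to 296 in the other mutants, and 3909 in control 2 against 121 to 641 in the other controls, with all 10 muscle markers, among them Myh3, Actc1 and Ttn, highest in control 2. The part of muscle and its nerves in these levels was not tested.

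Fabp7, which encodes a brain fatty acid binding protein of radial glia and Schwann cell precursors, did not share that pattern. It had 33.4, 28.8, 22.4 and 27.9 in mutants, against 36.6, 31.0, 33.9 and 22.6 in controls (log2 fold change -0.13, 95% interval -0.58 to 0.33, adjusted p = 0.923 by limma). Its highest library, control 1, was 1.63 times its lowest, on 20 to 43 reads per library, whereas the Sox10 levels rest on 1 to 12 reads. Of the 14 tested members, 12 varied by less than 2-fold between the highest and lowest library, the others being Ntrk2 at 2.06-fold and Chgb, which was listed at 0 in control 3. Over all tested genes the median of this ratio was 1.26.

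Genes of synaptic vesicle release differed in abundance. Syt1, the calcium sensor of release, had 63.0, 34.1, 41.4 and 49.4 in mutants, against 47.6, 66.2, 33.9 and 35.7 in controls. Control 2 and mutant 1 were highest (log2 fold change 0.050, 95% interval -0.49 to 0.59, adjusted p = 0.976 by limma). Snap25, the neuronal plasma membrane SNARE, had 8.59, 3.19, 6.72 and 5.37 in mutants, against 14.5, 3.10, 3.88 and 6.58 in controls, with control 1 highest.

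Levels can be compared between members only per length, here as mean normalised count per kilobase of merged exons in GENCODE vM21. Ngfr led with 186, followed by Gap43 at 92.6, Dcx at 87.4, Elavl4 at 37.7, Nefl at 24.7 and Fabp7 at 23.7. Map2 stood at 12.8 in mutants and 19.8 in controls per kilobase. Th (1.70), Dbh (1.98), Phox2a (1.81), Sox10 (1.61), Snap25 (0.955), Foxd3 (0.801), Bdnf (0.773) and Elavl3 (0.548) were at the low end on the same scale. Markers of the central nervous system were near absent, with Olig2, Neurog2 and Neurod1 at 0 in every library and a summed level over 8 genes of 5.60 to 20.2 in mutants and 12.6 to 15.5 in controls. Germ cell and gonadal markers, chiefly Ddx4 and Amh, summed to 6.44 to 12.8 in mutants and 5.95 to 13.4 in controls.

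Other genes of the same systems gave no call among 27 tested of 44 in the table, beside 0.570% of all tested genes, and edgeR and DESeq2 called none of them either. By limma 3 of the 27, Gfra3, Sncg and Erbb3, had an unadjusted p under 0.05, a share near the 8.70% of all tested genes. Gfra3, the artemin co-receptor of sympathetic and sensory precursors, had 12.4, 20.2, 17.9 and 18.3 in mutants, against 21.3, 44.5, 29.1 and 32.9 in controls. The groups did not overlap (log2 fold change -0.83, SE 0.256, unadjusted p = 0.0078, adjusted p = 0.270 by limma). Sncg, which encodes gamma-synuclein of peripheral neurons, had 25.2 ± 7.08 in mutants and 38.9 ± 9.28 in controls (SD, n = 4 each), with an adjusted p of 0.469 by limma. Erbb3, the neuregulin receptor of Schwann cells and of epithelia, had 419 ± 60.2 in mutants and 355 ± 20.7 in controls (SD, n = 4 each), with an adjusted p of 0.491 by limma.

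By system, 0 of 5 tested sympathoadrenal genes, 0 of 7 glial and crest genes, 0 of 9 neuronal genes and 0 of 7 genes of the neurotrophin and artemin families were called, with Gfra3 in 2 of these lists. Smallest p-values in the first of these belonged to Pnmt (log2 fold change 0.43), Ddc (0.17) and Gata2 (-0.11). In the glial list Tfap2a, a crest and ureteric transcription factor, followed Gfra3 and Erbb3 (log2 fold change 0.18). Vamp2 (log2 fold change 0.070) and Uchl1 (-0.084) followed Sncg. Sort1, the sortilin gene, had 1709 to 1800.1 in mutants and 1639 to 1707 in controls, without overlap (log2 fold change 0.061, adjusted p = 0.680 by limma).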

How the data were processed

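Poly(A)-selected RNA of E13.5 kidneys, 500 ng per library, was sequenced, per the labels' protocols. The submitters' processing notes name TopHat2 2.0.12, HTSeq, DESeq2 1.4.5 and mm10 (GRCm38). Annotation, strand setting and filters are not stated there, though a tag in the table's title may stand for unstranded counting. Deposited signal values behave as reads per gene scaled by 1 factor in each library: all of them (100%) came out as whole reads within 0.01 read. Also in the deposited table are mean signals, a linear ratio of group means, a log2 fold change and p-values, all computed by the authors.

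Here log2(value + 1) was fitted with limma 3.58.1 (intensity trend, R 4.3.3) over the 13692 genes with a mean of at least 10. Genotype was the single term, tests were two-sided, and p-values were adjusted by Benjamini-Hochberg over all those genes with a threshold of 0.05. Since the deposited values are scaled, count tests on the recovered reads served as alternatives: edgeR 4.0.16 (quasi-likelihood, TMM) called 79 genes and DESeq2 1.42.0 called 214, beside 78 by limma. Steps were tested on simulated data. Pairs of libraries in 1 group had a chi-square of 2.89 to 10.98 per degree of freedom over genes, above the sampling noise of a repeated library.

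Members, lists and alternatives were chosen with earlier results of these data known. All 28 members are named. From lists of related genes, up to 3 with the smallest p are named, and from tissue lists up to 3 with the highest mean. Some of these are not reported here. Other tissue markers, Hand1, the microtubule-associated protein list and the motif TGACGTNA were chosen after their values were seen. Promoters and positions are from RefSeq (GRCm38.p6), which gave a promoter for 21 members, and exon lengths and overlaps from GENCODE vM21. Plots used matplotlib 3.10.9 and Python 3.11.15.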

Additional observations from a re-analysis of the deposited data

Results flagged for a closer look

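Of 56 groups of 4 libraries, 2 for each member, 5 held a library set apart from its 3 fellows by its gap relative to the range. A rate of 1 in 20 would give 2.8. Many groups rest on few reads and members share libraries, so that number does not measure chance here. Mutant 1 was the library in 4 of the 5. Chgb was 85.0 there, against 4.48 to 11.8 in the other mutants, and Chga was 34.4, against 3.19 to 6.44. Th was 16.2, against 0 to 1.07, and Tubb3 was low at 11.5, against 16.0 to 16.8. That Tubb3 value rests on 12 reads, against 15 in each other mutant. In control 2, S100b was 9.30 (9 reads), against 3.40 to 3.88 (4 reads each) in the other controls.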

How the results depend on the processing

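The number of members called was 1, Map2, by limma and in each change of pseudocount, filter, scaling or test. Over the fits that left out 1 library it was 0 to 1, and it was 0 without controls 1 and 2 and 0 without both libraries numbered 2. Map2 kept its direction in all 20 alternatives and its call in 15; the cause of the lost calls was not tested. Related genes gave 0 calls throughout. All genes called numbered 78 by limma, 214 by DESeq2, 18 to 185 with 1 library left out, 29 without controls 1 and 2, 2 without both libraries numbered 2, and 14 without both numbered 1, a setting chosen after seeing the data.

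With the sample number as a replicate block, 232 genes were called and Map2 had an adjusted p of 0.0087 by limma. Deviations of same-numbered libraries correlated at 0.32, 0.29, 0.29 and 0.064 for numbers 1 to 4, so mutants 1 to 3 correlated best with their own number. Mutant 4 correlated better with control 3 (0.10), and the labels do not say what a number marks, so the fit without the block was kept.

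Fold changes of uncalled members near 0 changed sign. With 1 library left out, log2 fold changes ran over -0.10 to 0.24 for Syt1, -0.27 to 0.045 for Ntrk3, -0.014 to 0.14 for Dcx, -0.024 to 0.29 for Nefm and -0.0077 to 1.60 for Chgb. Without controls 1 and 2 they were 0.0087 for Fabp7, 0.046 for Tubb3, -0.16 for Dcx and 0.10 for Ntrk3. Without both libraries numbered 2 they were -0.055 for Dcx and 0.15 for Ntrk3, and without both numbered 1 -0.066 for Syt1. The cause was not tested. At the depth of these libraries, the 14 members with a mean under 10 had 0 to 36 reads per library, which limits what could be detected.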
